A study of Mus musculus with 6 samples.

Results

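The 30 genes described here encode proteins of the myelin sheath, enzymes that make or turn over its lipids, and other products of mature oligodendrocytes, the glial cells that wrap axons of the central nervous system. They were taken by gene symbol from a list of 30 myelin structural, myelin lipid and mature oligodendrocyte genes, and all 30 were found among the 23067 genes of the table. The study sequenced messenger RNA of the dorsal striatum, in bulk, at postnatal day 21. There were 3 libraries of wild-type mice (Lrrk2WT/WT) and 3 of mice homozygous for the Parkinson's-linked knock-in allele (Lrrk2G2019S/G2019S). The knock-in alters the endogenous Lrrk2 gene, which encodes a large kinase, in every cell that expresses it. All libraries were titled male, and the labels name no treatment. The labels do not state that each sample is another animal, and the p-values reflect only how these samples spread, part of which could be technical.

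Oligodendrocytes arise from dividing precursors, pass through a committed stage and then switch on the genes of the sheath under the transcription factors Sox10 and Myrf. In the mouse forebrain the weeks after birth are the main period of myelination, and the striatum is crossed by bundles of fibres that become wrapped in that time. Compact myelin is rich in cholesterol and in the galactolipids galactocerebroside and sulfatide. Levels are given in FPKM, a level scaled for library size and for transcript length. Differences are given on the log2(FPKM + 1) scale, knock-in minus wild type, on which changes of weakly expressed genes come out too small.

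The level of the edited gene was similar in all libraries, and because the knock-in is a point change this level does not check the labels. Lrrk2 stood at 10.9 to 12.0 FPKM over the wild-type libraries and at 12.1, 11.3 and 12.4 FPKM in knock-in (log2 difference 0.07, SE 0.07, adjusted p = 0.997 in limma). Summed FPKM ran from 314146 to 335508 per library, and 13999 to 14191 genes reached 1 FPKM. Mitochondrially encoded genes took 18.0% to 20.5% of that sum in 5 libraries and 23.2% in knock-in replicate 3. Xist, the RNA that coats an inactive X chromosome and is hardly made in male tissue, was at 27.3 to 39.3 FPKM in the 6 libraries titled male. The Y-linked genes Eif2s3y, Ddx3y, Kdm5d and Uty had no row among the genes given, so the titled sex is in doubt for all libraries. The table gives no read counts, so precision was taken from the spread between libraries.

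The stretches before the start sites of 4 abundant sheath genes are shown because their windows hold letters bound by Myrf or by Sox10 and its relatives. They were chosen for those matches, and the windows of Mal and Cldn11, which are more abundant than Mog and Mag, hold none. RefSeq promoter windows of 300 bases, from 250 before to 50 after a start site on GRCm38.p6, were matched for 21 of the 30 genes. Each window was searched on both strands for the letters bound by Myrf (CTGGCAC or CTGGTAC) and for letters bound by Sox10 and its relatives (ACAAAG or ACAATG). Overlapping matches were counted separately. The printed stretches begin 250 bases before the RefSeq start and end at it or at the first exon base in the GENCODE annotation. They run 5′ to 3′ on the strand of the gene, with matches to either motif in capitals.
Mag, chr7:30914923-30915172, minus strand: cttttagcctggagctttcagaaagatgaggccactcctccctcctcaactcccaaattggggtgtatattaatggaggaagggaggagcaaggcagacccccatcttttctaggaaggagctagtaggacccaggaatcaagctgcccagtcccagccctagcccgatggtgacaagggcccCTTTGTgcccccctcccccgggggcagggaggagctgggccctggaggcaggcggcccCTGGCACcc
Mog, chr17:37023399-37023648, minus strand: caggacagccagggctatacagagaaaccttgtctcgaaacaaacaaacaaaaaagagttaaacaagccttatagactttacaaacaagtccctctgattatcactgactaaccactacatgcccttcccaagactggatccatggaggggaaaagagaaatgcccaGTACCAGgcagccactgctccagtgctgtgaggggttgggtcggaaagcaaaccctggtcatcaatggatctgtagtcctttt
Cnp, chr11:100574689-100574903, plus strand: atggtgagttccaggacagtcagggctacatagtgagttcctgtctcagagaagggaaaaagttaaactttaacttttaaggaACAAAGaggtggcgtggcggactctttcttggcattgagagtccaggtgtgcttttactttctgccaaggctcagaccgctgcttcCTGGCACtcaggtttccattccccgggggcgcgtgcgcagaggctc
Mobp, chr9:120149492-120149706, plus strand: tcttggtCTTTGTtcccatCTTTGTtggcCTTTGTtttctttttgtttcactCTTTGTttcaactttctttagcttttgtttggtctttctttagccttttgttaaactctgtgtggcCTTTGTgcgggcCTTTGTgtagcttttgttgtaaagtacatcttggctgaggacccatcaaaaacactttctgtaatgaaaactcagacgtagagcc

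The Mag, Mog and Cnp stretches each hold 1 match to the Myrf letters, which in Mog lies on the other strand as GTACCAG. The Mobp stretch holds none and has 6 matches to ACAAAG on the other strand, seen as CTTTGT in a run rich in T. Of the 21 genes, 4 had a Myrf match in any window, the fourth being Opalin, or 19.0%, against 8.1% of all 27025 genes with windows. For the Sox letters the counts were 11 of 21 genes, or 52.4%, against 31.7%. By window, the Myrf letters were in 14.7% of 34 windows of these genes against 7.1% of all 32851, and the Sox letters in 41.2% against 28.6%. Windows of a gene can overlap, and the same Mag matches and the same Gal3st1 Sox match were counted in 2 windows each. These genes also had more windows per gene, 34 for 21 genes against 32851 for 27025, which raises their shares by gene. These are descriptions of letters in short windows and say nothing of binding in these samples.

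In knock-in striatum 27 of the 30 genes had a lower mean than in wild type, and none passed the test. The median difference over the 30 genes was -0.22, against -0.01 over the 14156 genes tested, of which 56.4% were lower. All 30 genes had a mean of at least 1 FPKM and were tested. With limma, 0 of the 30 were called at an adjusted p under 0.05, each with an adjusted p of 0.997 or 0.998, where 3 genes of 14156, or 0.0212%, were called. At an unadjusted p under 0.05 there were 7 of the 30, all lower (Cldn14, Ugt8a, Tspan2, Myrf, Mbp, Gsn and Mobp), against 3.02% of all genes tested that were lower at that p. The libraries of the genotypes did not overlap for 4 genes, all lower in knock-in (Cldn14, Ugt8a, Tspan2 and Myrf), against 6.58% of all genes tested. In bulk tissue, fewer oligodendrocytes and less of these transcripts per cell cannot be told apart.

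Knock-in replicate 3 was the lowest of the 6 libraries for 25 of the 30 genes, where it was the lowest for 32% of all genes tested. Wild type replicate 2 was the highest for 18 of the 30 genes, against 15.2% of all genes tested. Because these libraries were picked as the lowest and the highest, a smaller difference without them was largely fixed in advance. Without knock-in replicate 3 the median over the 30 genes was -0.11 and 25 of the 30 were lower, against 52.2% of all genes tested. In that fit 2 had an unadjusted p under 0.05, against 5.91% of all genes in either direction. Without wild type replicate 2 the median was -0.14 and 24 of the 30 were lower, against 58.2%. There 1 was at an unadjusted p under 0.05 in each direction, against 3.40%. Without wild type replicate 1 or 3 or knock-in replicate 1 or 2 the medians were -0.19, -0.29, -0.22 and -0.28. At that p 2, 11, 4 and 13 of the 30 were lower, against 3.115%, 3.19%, 4.46% and 6.05% of all genes in either direction.

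**Figure D1:**
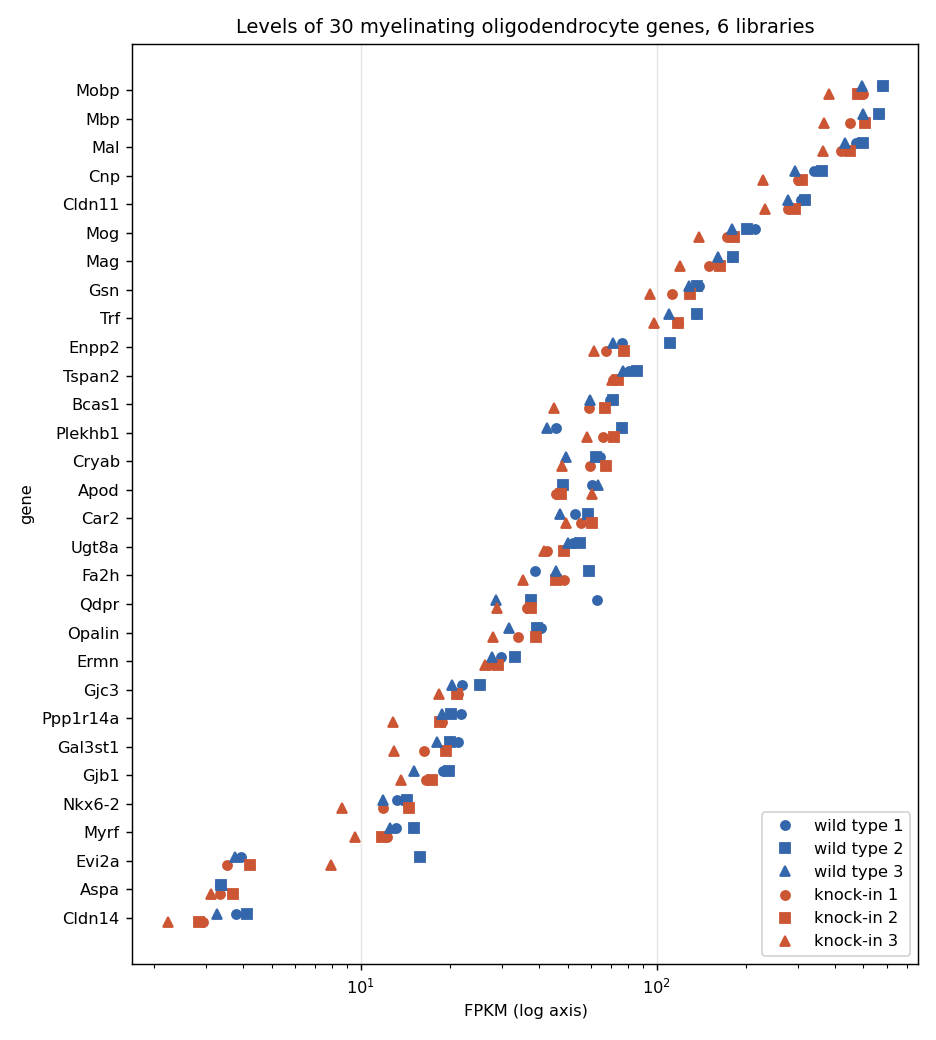
FPKM on a log axis of each of the 30 genes (rows, ordered by mean) in the 3 wild-type libraries (blue) and 3 knock-in libraries (orange), the symbol giving the replicate. Mobp, Mbp and Mal stood highest, and knock-in replicate 3 (orange triangle) was the lowest point for 25 of the 30 genes.

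The 7 genes of the list with the highest mean levels (Mobp, Mbp, Mal, Cnp, Cldn11, Mog and Mag) encode proteins of the sheath membrane. All 12 genes of that kind were lower on average in knock-in, with 0 called and a median difference of -0.22. Mbp, myelin basic protein, which holds the cytoplasmic faces of the membrane together, was at 565, 564 and 500 FPKM in wild type and at 452, 507 and 368 FPKM in knock-in. Knock-in replicate 2 lay above wild type replicate 3, so the genotypes overlapped. The means were 543 ± 37.5 and 442 ± 70.0 FPKM (SD, n = 3 each), and the log2 difference was -0.31 (SE 0.12, unadjusted p = 0.0408 and adjusted p = 0.997 in limma).

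Mobp, another small basic protein of compact myelin, was at 576, 581 and 496 FPKM in wild type and at 497, 481 and 381 FPKM in knock-in. The lowest wild-type library, replicate 3, lay just under the highest knock-in library, replicate 1. Its log2 difference was -0.29 (SE 0.12, adjusted p = 0.997 in limma), the fold having a 95% interval of 0.674 to 0.995. Mobp and Mbp stood at nearly equal levels, with a ratio of Mbp to Mobp of 0.910 to 1.05 in the 6 libraries.

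Mal, a raft protein that sorts cargo to the sheath, was the third in abundance, at 474, 498 and 432 FPKM in wild type and 421, 449 and 366 FPKM in knock-in. Cldn11, the claudin that makes the tight junctions between turns of the sheath, was at 308, 317 and 279 FPKM and at 277, 294 and 232 FPKM. For both genes 1 knock-in library, replicate 2, lay inside the wild-type range. Cldn14, another claudin, was far less abundant, at 3.78, 4.11 and 3.27 FPKM in wild type and 2.92, 2.83 and 2.23 FPKM in knock-in. Its libraries did not overlap, and it had the smallest unadjusted p of the 30 genes (log2 difference -0.37, SE 0.10, unadjusted p = 0.00788 and adjusted p = 0.997 in limma).

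Among the proteins that face the axon, the outside or the cytoplasm of the sheath, knock-in replicate 3 was the lowest library for Mag, Mog and Cnp. Mag, the adhesion protein on the innermost turn, was at 180, 181 and 161 FPKM in wild type and at 150, 164 and 120 FPKM in knock-in. Mog, an immunoglobulin-like protein of the outermost surface, stood at 215, 201 and 179 FPKM and at 173, 183 and 140 FPKM. In both, only knock-in replicate 2 overlapped the wild-type libraries, and the log2 differences were -0.28 and -0.27. The ratio of Mog to Mag was 1.12 to 1.20 in the 6 libraries. Cnp, the cyclic nucleotide phosphodiesterase that keeps channels of cytoplasm open in the sheath, stood at 340, 363 and 294 FPKM and at 301, 311 and 229 FPKM, with 2 knock-in libraries above wild type replicate 3. Cnp shares 154 exon bases with Dnajc7 on the opposite strand. Of the 30 genes 8 share exon bases with a gene on the opposite strand (Cnp, Tspan2, Enpp2, Nkx6-2, Ermn, Bcas1, Qdpr and Cryab) and 3 with a gene on the same strand (Mobp, Evi2a and Trf). The strand setting of the counting is not given in the sources used here, so reads of such pairs may not have been told apart.

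Tspan2, a tetraspanin of oligodendrocytes, had the smallest spread relative to its mean among the knock-in libraries of this group. It was at 80.3, 85.5 and 76.7 FPKM in wild type and at 71.4, 74.1 and 70.6 FPKM in knock-in, so that all knock-in libraries lay below all wild-type libraries. Its log2 difference was -0.16 (SE 0.06, adjusted p = 0.997 in limma). Opalin, a glycoprotein of mature oligodendrocytes, overlapped widely, with wild-type libraries at 31.6 to 40.6 FPKM and knock-in libraries at 27.9 to 39.1 FPKM.

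The gap-junction proteins of the list were Gjb1, connexin 32, and Gjc3, connexin 29. Gjb1 was at 18.9, 19.8 and 15.1 FPKM in wild type and 16.6, 17.4 and 13.7 FPKM in knock-in, and Gjc3 at 22.0, 25.2 and 20.3 FPKM and at 21.3, 21.1 and 18.4 FPKM. Both overlapped, with log2 differences of -0.16 and -0.14. The ratio of Gjb1 to Gjc3 was 0.743 to 0.861 in the 6 libraries. Gjb1 lies on the X chromosome, at 101376378 to 101385629 on GRCm38.

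Among the 6 lipid enzymes and carriers, 5 were lower and 0 were called, with a median of -0.20. Ugt8a makes galactocerebroside by adding galactose to ceramide, and it was at 52.3, 55.1 and 49.97 FPKM in wild type and at 42.7, 48.6 and 41.7 FPKM in knock-in. Its libraries did not overlap (log2 difference -0.24, SE 0.08, unadjusted p = 0.0157 and adjusted p = 0.997 in limma), and the 95% interval of the fold ran from 0.748 to 0.959. Gal3st1, which sulfates galactocerebroside to sulfatide, followed it on average, at 21.3, 20.0 and 18.1 FPKM and at 16.4, 19.4 and 12.9 FPKM. Here knock-in replicate 2 lay inside the wild-type range, and the log2 difference was -0.29 (SE 0.14). The ratio of Ugt8a to Gal3st1 was 2.66 ± 0.174 in wild type and 2.78 ± 0.389 in knock-in (SD, n = 3 each), with its highest value, 3.23, in knock-in replicate 3.

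Fa2h, which hydroxylates the fatty acids of these lipids, did not keep that order. It was at 38.9, 59.1 and 45.7 FPKM in wild type and 48.6, 45.8 and 35.3 FPKM in knock-in, and its log2 difference of -0.14 (SE 0.18) was 0.023 without wild type replicate 2. Aspa, which releases acetate from N-acetylaspartate, varied little, from 3.35 to 3.40 FPKM over the wild-type libraries and from 3.11 to 3.71 FPKM over the knock-in libraries. Its log2 difference was 0.0021, the fold having a 95% interval of 0.893 to 1.12, and its sign turned in 4 of the alternatives tried.

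Enpp2, autotaxin, which makes lysophosphatidic acid, was high in 1 wild-type library, with 111 FPKM in replicate 2, while the other wild-type libraries held 71.0 to 76.6 FPKM and the knock-in libraries 61.5 to 77.6 FPKM. The choroid plexus also makes Enpp2, and all 8 of its listed markers had values, 2 of them with a mean of at least 1 FPKM. They summed to 17.9 to 385 FPKM over the wild-type libraries, the top value in replicate 2 being nearly all the plexus transthyretin Ttr (374 FPKM), and to 6.68 to 18.8 FPKM in knock-in. The lowest marker value was 0.0435 FPKM. The part of these cells in the Enpp2 level was not tested. Without wild type replicate 2 its log2 difference was -0.11 in place of -0.30. Apod, apolipoprotein D, a lipid carrier also made by perivascular and meningeal cells, had another library order within each genotype than most of the 30. Apod was still lower on average in knock-in. It was at 60.6, 48.3 and 63.4 FPKM in wild type and at 45.5, 47.5 and 60.2 FPKM in knock-in, so wild type replicate 2, the highest library for 18 of the 30 genes, was here the lowest wild type, and knock-in replicate 3 was high among the knock-ins.

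Both transcription factors of maturation were lower on average. Myrf, which switches on the sheath genes, was at 13.1, 15.2 and 12.5 FPKM in wild type and at 12.2, 11.8 and 9.54 FPKM in knock-in, without overlap. Its log2 difference was -0.26 (SE 0.11, unadjusted p = 0.0397 and adjusted p = 0.997 in limma). Nkx6-2, a homeobox factor of mature oligodendrocytes, had its highest value in a knock-in library. It was at 13.3, 14.4 and 11.9 FPKM in wild type and at 11.9, 14.6 and 8.62 FPKM in knock-in, and without knock-in replicate 3 its log2 difference of -0.18 was 0.0047.

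Of the 6 cytoskeletal and signalling genes, 5 were lower and 0 were called, with a median of -0.26. Gsn, gelsolin, which severs actin filaments and is made by oligodendrocytes and several other cell types, measured 139, 137 and 128 FPKM in wild type and 113, 129 and 95.03 FPKM in knock-in. Knock-in replicate 2 lay within the wild-type range, and the log2 difference was -0.27 (SE 0.11, unadjusted p = 0.0425 and adjusted p = 0.997 in limma). Ppp1r14a, an inhibitor of myosin phosphatase, had a wide gap in 1 library, with 12.9 FPKM in knock-in replicate 3, where the 5 others held 18.6 to 21.8 FPKM. Bcas1, which marks oligodendrocytes as they begin to myelinate, was at 69.7, 71.0 and 59.4 FPKM and at 59.1, 66.7 and 45.0 FPKM, and Ermn, an actin-binding protein of late stages, at 27.7 to 33.3 FPKM and 26.2 to 29.0 FPKM. Both overlapped between genotypes.

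The remaining pair of that group, Plekhb1 and Evi2a, did not vary with the rest. Plekhb1, a membrane protein with a pleckstrin homology domain, was at 45.6, 76.5 and 42.5 FPKM in wild type and at 65.9, 71.8 and 58.0 FPKM in knock-in, and was higher on average in knock-in (log2 difference 0.29, SE 0.23, adjusted p = 0.997 in limma). Evi2a, a small transmembrane protein encoded within an intron of Nf1, was at 3.93, 15.8 and 3.76 FPKM in wild type and 3.53, 4.22 and 7.91 FPKM in knock-in. Evi2a shares 442 exon bases on the same strand with the readthrough gene Evi2, which had 0.0233 FPKM in knock-in replicate 3 and 0.150 to 0.700 FPKM elsewhere, so that the assignment of reads between them is uncertain. Without wild type replicate 2 the log2 difference of Evi2a turned from -0.30 to 0.30, and without it Plekhb1 stood at 0.55.

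The 4 metabolic, iron and chaperone genes were mixed, with 3 lower, 1 higher and 0 called. Trf, transferrin, the iron carrier that oligodendrocytes make in brain, was at 136, 137 and 110 FPKM in wild type and 118, 118 and 97.6 FPKM in knock-in, with 2 knock-in libraries above wild type replicate 3. Trf shares 2108 exon bases on the same strand with the gene model Gm20425, or 63.5% of its exon bases. Gm20425 was listed at 0.634 to 1.41 FPKM, and reads from the shared exons could be assigned to either gene. Car2, carbonic anhydrase 2, was at 47.2 to 58.7 FPKM and at 49.3 to 60.5 FPKM, a log2 difference of 0.06 with the fold's 95% interval at 0.881 to 1.23. Cryab, a small heat shock protein, was at 49.5 to 64.1 FPKM and at 47.8 to 67.4 FPKM, a difference of -0.02, whose sign turned in 4 alternatives. Qdpr, which regenerates tetrahydrobiopterin, was high in 1 library, with 62.9 FPKM in wild type replicate 1, where the 5 others held 28.6 to 37.5 FPKM, and without it the log2 difference turned from -0.25 to 0.056.

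**Figure D2:**
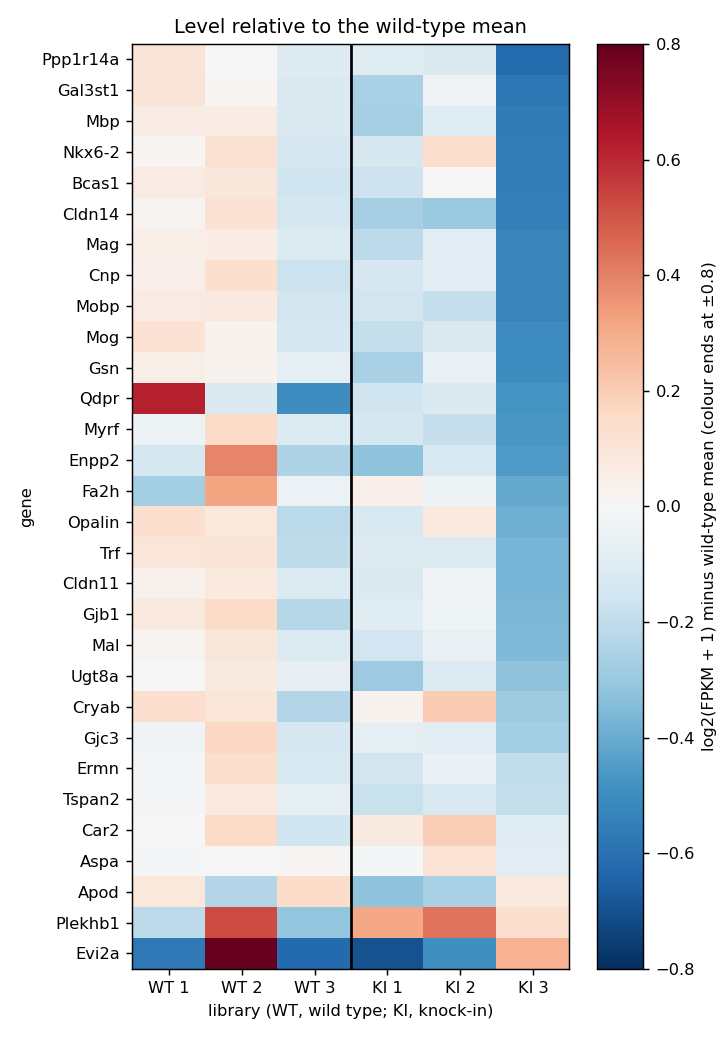
Colour gives log2(FPKM + 1) of each gene (rows) in each library (columns) minus its wild-type mean, red higher and blue lower. The column of knock-in replicate 3 is blue for most genes, wild type replicate 3 is a paler blue, and Apod, Plekhb1, Evi2a and Qdpr break the pattern.

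For 16 of the 30 genes the deviation from the wild-type mean stayed within 0.2 on the log2 scale of the median deviation of all 30 in each of the 6 libraries, against 5.98% of all genes tested. That median includes the genes themselves, and the tolerance is close in size to the group's median difference of -0.22. The 16 were Mbp, Mog, Mag, Mobp, Cnp, Mal, Cldn11, Opalin, Gjb1, Gjc3, Ugt8a, Gal3st1, Myrf, Gsn, Bcas1 and Trf. In knock-in replicate 3 they stood at 65.3% to 81.7% of their wild-type means. Evi2a, Qdpr, Apod, Plekhb1 and Fa2h ranged most widely about that median.

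The order of the libraries within each genotype was shared too. Wild type replicate 3 was the lowest wild-type library for 27 of the 30 genes, against 29.99% of all genes tested. Knock-in replicate 3 was the lowest knock-in library for 28 of the 30, against 44.9%. Both held for 26 of the 30 genes, against 17.1% of all genes tested. The median deviation of the 30 genes was 0.04, 0.09 and -0.14 in wild type replicates 1 to 3 and -0.15, -0.08 and -0.40 in knock-in replicates 1 to 3. Knock-in replicate 1 and wild type replicate 3 therefore stood at nearly the same level, and knock-in replicate 2 above wild type replicate 3. The 30 genes together took 1.15%, 1.23% and 1.03% of the summed FPKM in wild type and 0.993%, 1.05% and 0.796% in knock-in. By this sum, too, knock-in replicate 2 lay above wild type replicate 3.

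**Figure D3:**
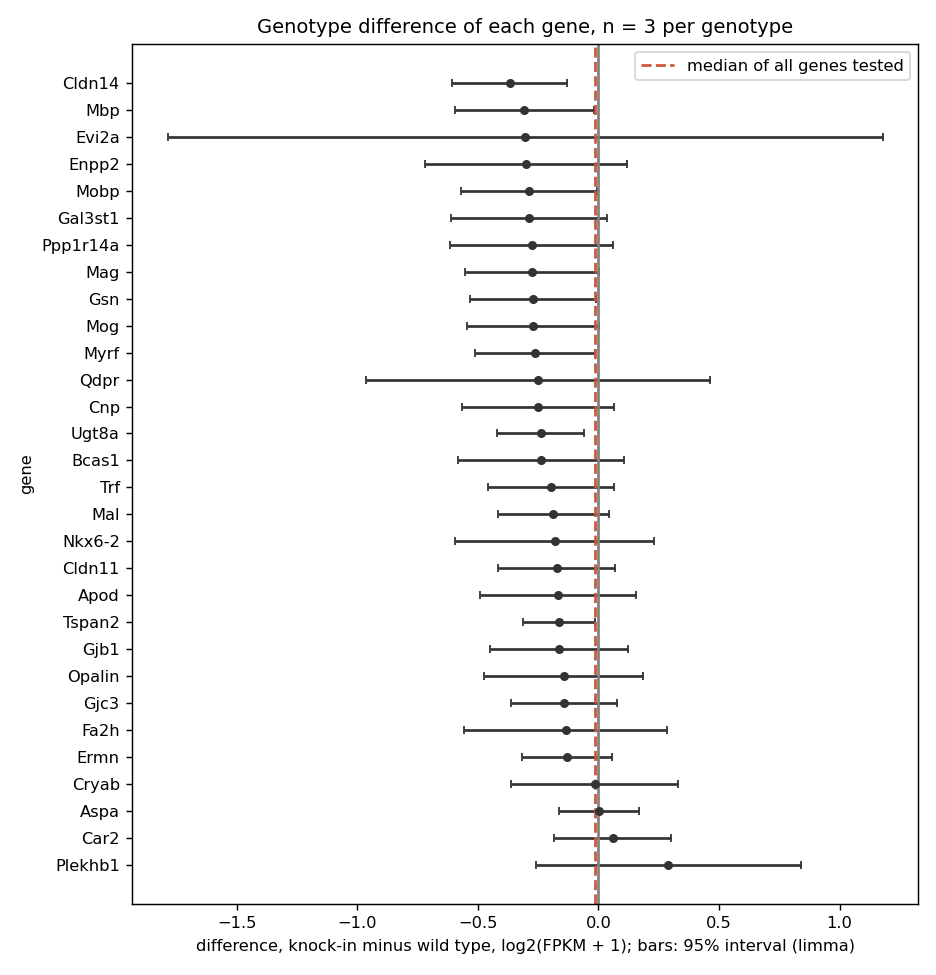
Log2 difference of each gene, knock-in minus wild type, with its 95% interval from limma (n = 3 per genotype), and the median over all genes tested as a dashed line. Of the 30 points 27 lie below 0, and for 7 genes the whole interval lies below 0 before adjustment for the number of genes tested.

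Other genes of the lineage were compared from lists of related genes. Of 30 other genes of mature oligodendrocytes 26 were lower, with a median of -0.11, 0 called and 5 lower at an unadjusted p under 0.05. Over all genes tested 56.4% were lower, and 3.02% were lower at that p. The 3 with the smallest p were Nipal4, a magnesium transporter, Sirt2, a deacetylase abundant in myelin, and Adamts4, a metalloprotease of mature oligodendrocytes. Nipal4 was at 7.84, 7.17 and 6.10 FPKM in wild type and 4.92, 6.23 and 4.68 FPKM in knock-in. Sirt2 was at 46.6, 45.4 and 47.0 FPKM and at 37.8, 42.5 and 31.2 FPKM, and Adamts4 at 18.1, 20.1 and 17.4 FPKM and at 16.2, 16.7 and 13.9 FPKM, neither overlapping.

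The table held 9 lineage transcription factors, of which 8 were tested and 7 were lower, with a median of -0.18 and 0 called. The genotypes did not overlap for 2 of the 8, both lower in knock-in. Over all genes tested 56.4% were lower, and 6.58% were lower without overlap. Sox8, a relative of Sox10, was at 31.7, 31.8 and 29.6 FPKM in wild type and 28.6, 28.3 and 23.9 FPKM in knock-in, without overlap. The zinc finger factor Zfp536 did not overlap either, at 1.47 to 1.89 FPKM and at 1.30 to 1.40 FPKM, and Zfp488, a factor of oligodendrocyte differentiation, met at its edge, at 2.71 to 3.03 and 2.07 to 2.71 FPKM. The ratio of Mbp to each of the 8 tested factors overlapped between genotypes for 6 and was lower in every knock-in library for 2, Olig1 and Olig2. For Olig1, a factor of maturation, it was 5.25, 4.90 and 4.98 in wild type and 4.09, 4.40 and 4.60 in knock-in. For Olig2 it was 33.76, 30.91 and 29.57 in wild type and 27.15, 29.56 and 28.47 in knock-in, so the genotypes all but met. The ratio of Mbp to Sox10 was 14.3, 13.9 and 14.9 in wild type and 13.7, 14.2 and 14.1 in knock-in, and that of Mag to Olig2, which specifies the lineage, was 10.7, 9.89 and 9.51 and then 8.999, 9.54 and 9.27. The last 2 ratios overlapped between genotypes. These ratios and their genes were chosen with the results in view.

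Genes of precursors and of the committed stage were lower in 15 of 15, with a median of -0.17, 0 called and 6 at an unadjusted p under 0.05. The genotypes did not overlap for 7 of the 15, all lower in knock-in. Over all genes tested 56.4% were lower, 3.02% were lower at that p, and 6.58% were lower without overlap. Tnr, tenascin-R, an extracellular matrix protein, was at 12.3, 13.4 and 13.2 FPKM in wild type and 11.4, 10.7 and 11.3 FPKM in knock-in. Itpr2, a calcium release channel of committed cells, was at 2.65 to 2.83 FPKM and 2.06 to 2.39 FPKM, and Gpr17, a receptor of the same stage, at 37.7, 39.8 and 38.5 FPKM and at 29.7, 36.7 and 25.2 FPKM. None of the 3 overlapped, and each had an adjusted p of 0.997 in limma. Precursor genes differed from the 30 sheath and mature genes in the wild-type libraries, where their median deviation was -0.02, 0.0023 and -0.0055, so wild type replicate 3 was not low for them. The ratio of Mbp to Pdgfra, the growth factor receptor of precursors, was 84.9, 85.7 and 76.1 in wild type and 68.8, 81.7 and 61.6 in knock-in, lowest in replicate 3 of each genotype. Pdgfra, too, was chosen with the results in view.

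By their medians, lipid synthesis genes that many cells use were nearer to all genes than the 30 were. Of 12 sphingolipid genes 10 were lower, with a median of -0.04 and 0 called. Of 18 cholesterol synthesis genes 16 were lower, with a median of -0.08 and 0 called. These shares, 83.3% and 88.9%, lay near the 90% of the 30 genes, against 56.4% of all genes tested. Knock-in replicate 3 was the lowest library for 6 of the 12 and 14 of the 18, against 32% of all genes tested. Among the sphingolipid genes, Elovl7, a fatty acid elongase, and Cers2, a ceramide synthase, had the smallest p. Elovl7 was at 8.73, 9.23 and 8.49 FPKM in wild type and 7.15, 7.93 and 7.16 FPKM in knock-in. Cers2 was at 41.2, 39.9 and 38.7 FPKM and at 33.5, 37.2 and 29.4 FPKM. Neither overlapped. Ugcg, which makes glucosylceramide from the substrate that Ugt8a also uses, was on average the other way, at 8.26 to 9.04 FPKM and 8.96 to 10.7 FPKM. Dhcr7, the last enzyme of cholesterol synthesis, did not overlap, at 6.43, 6.13 and 5.82 FPKM in wild type and 3.67, 3.63 and 5.16 FPKM in knock-in (log2 difference -0.48, SE 0.12, adjusted p = 0.997 in limma). It was highest among the knock-ins in replicate 3, where the sheath genes were lowest.

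The 10 proteins of the node and paranode, where axon and sheath meet, were divided, with 5 lower, 5 higher and a median of -0.0038. Nfasc, neurofascin, which has a glial form at the paranode and a neuronal form at the node, did not overlap, at 42.2, 48.4 and 43.2 FPKM in wild type and 38.0, 37.8 and 32.6 FPKM in knock-in. Ank3, the ankyrin of the axon initial segment and node, was on average the other way, at 6.64 to 7.80 and 7.65 to 9.20 FPKM, as the range of each genotype. The log2 differences were -0.30 and 0.23, with 0 of the 10 called.

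**Figure D4:**
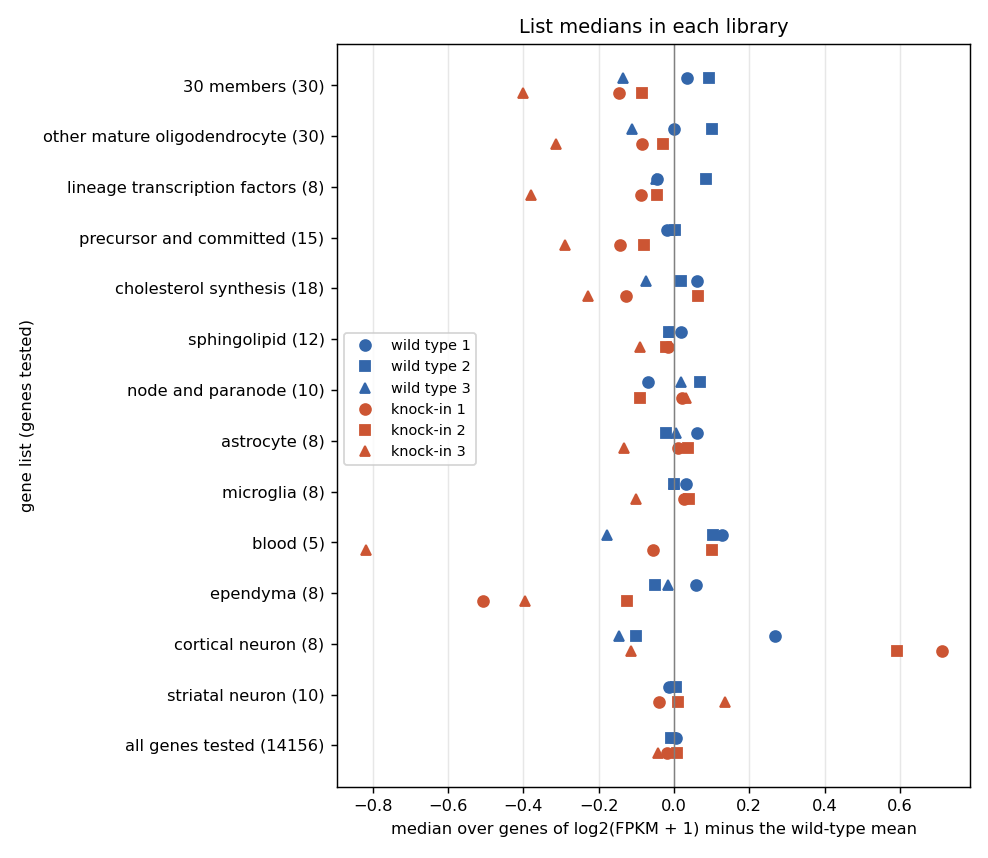
Median over the genes of each list (rows, with the number tested) of log2(FPKM + 1) minus the wild-type mean, 1 point per library, wild type in blue and knock-in in orange. Knock-in replicate 3 (orange triangle) is the lowest point of the 4 oligodendrocyte lists, and of every other list plotted but those of the node and paranode, ependyma and both kinds of neuron, reaching -0.82 for blood, while the median of all genes tested stays between -0.04 and 0.01.

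Markers of other cell types were set beside the 30 genes, since the samples are dissected tissue. Blood genes had the same low libraries as the 30 genes. All 5 were lower on average, with 0 called, and summed to 1445, 1433 and 1136 FPKM in wild type and 1312, 1479 and 761 FPKM in knock-in, lowest in replicate 3 of each genotype. Astrocyte markers (8 of 8 tested, 6 lower) summed to 666 to 698 FPKM and 616 to 696 FPKM, and microglia markers (8 of 8 tested, 4 lower) to 282 to 294 and 271 to 295 FPKM, each lowest in knock-in replicate 3. Ependymal markers were lower in 8 of 8, with a median of -0.37 against -0.22 for the 30 genes. Of these 8, 0 were called, and 5 were lower at an unadjusted p under 0.05, against 3.02% of all genes tested. The genotypes did not overlap for 4 of the 8, all lower, against 6.58% of all genes tested. The ependymal markers summed to 31.4 to 36.4 FPKM and 21.7 to 32.7 FPKM. Endothelial and mural markers (8 of 8 tested, 3 lower) summed to 131 to 140 FPKM and 124 to 141 FPKM, and meningeal fibroblast markers (3 of 6 tested, 3 lower) to 13.5 to 16.2 FPKM and 11.5 to 14.97 FPKM.

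Neuronal markers stood the other way in some libraries. Cortical excitatory neuron markers, of which 12 had values and 8 were tested, were higher in 8 of 8, with 0 called. Of all 14156 genes tested 6169 were higher. The markers summed to 70.7, 52.9 and 52.4 FPKM in wild type and 106, 90.4 and 56.6 FPKM in knock-in. By this sum knock-in replicates 1 and 2 were high, and knock-in replicate 3, where the sheath genes were lowest, was within the wild-type range. Lamp5 made up 41.15 to 48.23 FPKM of each sum. Its log2 difference was only 0.05, and those of Rorb and Cux2 were 0.01. Slc17a7, at a lower level, was at 10.95, 3.55 and 2.73 FPKM in wild type and 29.9, 25.2 and 3.41 FPKM in knock-in. Markers of striatal projection neurons, the main cells of the tissue, were higher in 8 of 10, with 0 called, and highest in knock-in replicate 3, at a sum of 2957 FPKM against 2678 to 2842 FPKM in the others. Once the cortical marker level entered the fit as a covariate, the median of the 30 genes was -0.36, 28 were lower and 0 were called. Their smallest adjusted p was 0.325 in limma. All genes tested shifted too, with 61.1% lower in that fit against 56.4% without the covariate. At an unadjusted p under 0.05 were 10.98% of all genes, against 4.27%. The covariate, a mean of log2(FPKM + 1), was 2.80 and 2.62 in knock-in replicates 1 and 2. It was 1.62 to 2.12 in the other libraries, so it partly followed genotype. The part of these cells, of blood and of the mitochondrial share in the levels of the 30 genes was not tested.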

How the data were processed

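Messenger RNA of dorsal striatum was measured in 3 wild-type and 3 knock-in libraries, grouped by title, after miRNeasy extraction and TruSeq library preparation per the labels' protocols. The authors deposited FPKM, 1 value for each gene in each library, per the file headers. The submitters' processing notes name the tools FastQC, HISAT2, SAMtools and StringTie, without version or role. Genome build, annotation and strand setting: not given in the sources used here. The table holds 23067 genes and 0 values at 0, so a gene at 0 in a library may have no row. The 30 genes, the lists, the tests and the naming rule (all 30 genes, the 3 smallest p of each related list, and marker sums) were chosen with earlier results of these data known. Sox10, Olig1, Olig2, Pdgfra, Ttr, Xist, the Y-linked genes, Slc17a7, Lamp5, Rorb, Cux2 and the overlap partners fall outside that rule.

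After a log2(FPKM + 1) transform, limma 3.58.1 (R 4.3.3, trended prior variance, robust estimation, two-sided, no covariates) was fitted to the 14156 genes whose mean reached 1 FPKM, and p-values were adjusted by Benjamini-Hochberg over all of them. The fit was also run on simulated data with independent noise for each gene. Those data lack shifts shared by many genes of a library, so they do not check the fit against such shifts. Positions and overlaps are from GENCODE M21 on GRCm38, matched by identifier for 22972 of 23067 genes and all 30 described here, and promoters from RefSeq on GRCm38.p6. The alternatives were another pseudocount, other filters and scalings, a replicate block, a cortical covariate, no trended or robust variance, and each library left out. Depth is not known from FPKM. One marker list is not reported here.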

Additional observations from a re-analysis of the deposited data

How the results depend on the processing

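With 15 alternatives, 0 of the 30 genes were called in any fit, and 23 kept their sign throughout. The lowest adjusted p of any of them was 0.325 in limma, with the cortical marker covariate. In that fit 10.98% of all genes tested had an unadjusted p under 0.05, against 4.27% in the main fit. The replicate numbers were not taken as pairs: same-numbered libraries correlated in their deviations at -0.01, -0.07 and 0.19, and not every library correlated best with its own number. With the replicate block 2 genes of all were called in place of 3, and 0 of the 30 were called. With it 15 of the 30 had an unadjusted p under 0.05 in place of 7, against 4.295% of all genes tested. The count called over all genes was 3 to 14 with 1 library left out, with 8 lacking wild type replicate 2 and 11, 14 and 6 lacking knock-in replicates 1, 2 and 3. It was 2 to 4 in the other alternatives. The count of the 30 genes without overlap between genotypes was 12 with quantile normalization and 11 with an equal sum of non-mitochondrial FPKM in every library, an alternative chosen after seeing the data. With 1 library left out it was 4 to 20, in fits where fewer libraries have to be separated. It was 20 when wild type replicate 3 was dropped and 15 when knock-in replicate 2 was. The share of all genes without overlap was not counted in these alternatives, so these counts have no background to be read against. The median difference was -0.36 with the cortical covariate and between -0.29 and -0.11 with 1 library left out. The cause of these shifts was not tested.

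Signs turned for 7 genes. With 1 library left out, Cryab ran from -0.13 to 0.12, Aspa from -0.050 to 0.048, Car2 from -0.020 to 0.13, Evi2a from -0.61 to 0.30, Fa2h from -0.27 to 0.023, Qdpr from -0.50 to 0.056 and Nkx6-2 from -0.34 to 0.0047. With the cortical covariate Aspa was at -0.052, Car2 at -0.052 and Evi2a at 0.25. Cryab was at 0.0041 with median-of-ratios scaling, and Aspa at -0.0093 with the equal non-mitochondrial sum. No count-based test was run, because FPKM carry no read counts.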
